A study of Mus musculus with 96 samples.

Results

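The 7 genes described here encode the sodium-dependent phosphate transporters Slc34a1, Slc34a2, Slc34a3, Slc20a1 and Slc20a2 and the PDZ scaffold proteins Pdzk1 and Slc9a3r1. They were chosen by gene symbol from a transcript table of 54532 mouse genes, and each symbol matched 1 row (gene IDs ENSMUSG00000021490 for Slc34a1, ENSMUSG00000029188 for Slc34a2, ENSMUSG00000006469 for Slc34a3, ENSMUSG00000027397 for Slc20a1, ENSMUSG00000037656 for Slc20a2, ENSMUSG00000038298 for Pdzk1 and ENSMUSG00000020733 for Slc9a3r1). The table covers hand-dissected pieces of 14 renal tubule segments and glomeruli from kidneys of male C57BL/6 mice aged 6 to 8 weeks, kept on normal chow with free access to water, with no other treatment or allele named. Its 93 RNA samples come from 53 mice, the number of combinations of mouse number and segment in the labels, so each combination was treated as 1 mouse, with 1 to 3 pieces. Levels are in TPM, each gene's share of all transcripts after scaling for transcript length, and the pieces of a mouse were averaged before any group mean ± SD was taken. The groups were the glomerulus (GL, 3 mice), the first convoluted part of the proximal tubule (PTS1, 3 mice), its straight part in the cortical medullary rays (PTS2, 5 mice) and its terminal straight part in the outer stripe (PTS3, 3 mice). The thin limbs were the descending limb of short loops (DTL1, 3 mice), that of long loops in the outer medulla (DTL2, 3 mice) and in the inner medulla (DTL3, 3 mice), and the thin ascending limb (ATL, 4 mice). The remaining groups were the thick ascending limb in the medulla (MTAL, 3 mice) and in the cortex (CTAL, 5 mice), the distal convoluted tubule (DCT, 3 mice), the connecting tubule (CNT, 3 mice) and the cortical, outer medullary and inner medullary collecting ducts (CCD, 5 mice, OMCD, 4 mice, and IMCD, 3 mice).

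Filtered phosphate is taken back from the tubular fluid mainly in the proximal tubule, by carriers in the brush border membrane that use the inward sodium gradient. Slc34a1 (NaPi-IIa) and Slc34a3 (NaPi-IIc) are the renal carriers of that family, and Slc34a2 (NaPi-IIb) is best known from intestine and lung. Slc20a1 (PiT-1) and Slc20a2 (PiT-2) belong to a separate family that is present in most tissues and prefers monovalent phosphate. Pdzk1 and Slc9a3r1 (NHERF1) carry PDZ domains that hold the C-terminal tails of carriers at the brush border, and Slc9a3r1 also binds ezrin, which ties it to the actin cytoskeleton. Parathyroid hormone and FGF23 lower phosphate uptake by removing the Slc34 carriers from this membrane.

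Promoter sequences are shown first, for members with contrasting patterns along the nephron. RefSeq (build GRCm38.p6) gave a promoter for 6 of the 7 genes, and Slc20a2 had no entry. The 3 genes with mainly proximal transcripts are printed beside Slc20a1, which had transcripts in every group, 5′ to 3′ in transcript direction, with 250 bases before the start and the first 30 bases from it. Capitals mark the motifs searched on both strands: GTTAAT (part of the HNF1 site), CAAAGTCCA (an HNF4 core), GGGCGG (a GC box), CACGTG (an E-box) and TATAAA, none of which overlapped another here.
Slc34a1 (chr13:55399398-55399677, + strand): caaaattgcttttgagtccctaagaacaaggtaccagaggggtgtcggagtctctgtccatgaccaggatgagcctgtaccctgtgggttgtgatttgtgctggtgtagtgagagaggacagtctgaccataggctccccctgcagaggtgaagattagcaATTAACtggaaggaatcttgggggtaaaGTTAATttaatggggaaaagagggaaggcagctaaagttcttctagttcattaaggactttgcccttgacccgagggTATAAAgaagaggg
Slc34a3 (chr2:25234205-25234484, - strand): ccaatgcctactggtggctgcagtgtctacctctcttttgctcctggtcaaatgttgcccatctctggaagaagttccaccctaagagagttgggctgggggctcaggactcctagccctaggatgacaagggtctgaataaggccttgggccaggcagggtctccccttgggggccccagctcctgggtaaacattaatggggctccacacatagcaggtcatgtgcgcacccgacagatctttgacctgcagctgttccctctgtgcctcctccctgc
Pdzk1, first of 2 starts (chr3:96829815-96830094, + strand): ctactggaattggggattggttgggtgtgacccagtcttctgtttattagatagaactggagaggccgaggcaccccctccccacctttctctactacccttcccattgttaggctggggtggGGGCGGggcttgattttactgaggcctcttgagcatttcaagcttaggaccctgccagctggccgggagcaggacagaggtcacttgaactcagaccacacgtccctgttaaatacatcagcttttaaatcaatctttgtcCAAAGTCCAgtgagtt
Slc20a1, first of 2 starts (chr2:129198523-129198802, + strand): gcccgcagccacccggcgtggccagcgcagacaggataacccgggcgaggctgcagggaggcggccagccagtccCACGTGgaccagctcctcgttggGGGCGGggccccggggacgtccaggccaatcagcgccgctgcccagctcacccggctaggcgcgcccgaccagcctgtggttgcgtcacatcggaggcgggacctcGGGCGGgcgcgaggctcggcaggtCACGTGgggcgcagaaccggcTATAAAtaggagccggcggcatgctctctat
The search covered windows of 300 bases, 250 before and 50 from the start. The Slc34a1 window held GTTAAT 2 times, 89 and 61 bases before the start, and TATAAA 1 time, after the start. Of 32851 RefSeq promoters of the same length, 7.10% held GTTAAT and 13.6% TATAAA. Pdzk1 held CAAAGTCCA 1 time, just after its first start, a motif in 0.475% of promoters, and GGGCGG 1 time, a motif in 35.7%. At its first start Slc20a1 held GGGCGG 2 times, CACGTG 2 times, where 7.15% of promoters hold it, and TATAAA 1 time, across the start itself. Slc9a3r1 held GGGCGG 4 times. None of these letters were found in the windows of Slc34a3, Slc34a2 or the second Pdzk1 start. These matches describe the letters only.

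The labelled segments were checked against cell markers. The summed level of 8 proximal tubule markers (Lrp2, Cubn, Slc5a2, Slc5a12, Miox, Fbp1, Slc27a2 and Kap) lay between 16329 and 91997 TPM in PTS1 to PTS3 mice and between 0.65 and 4945 TPM elsewhere, with DTL1 mice (1384 to 4945 TPM) next. Podocyte, thick limb and distal convoluted tubule lists each had their highest sums in GL, CTAL and DCT. Thin limb sums were highest in ATL but were also 1405 to 2693 TPM in IMCD mice. The leukocyte list had its highest sums in CTAL mice (450 to 986 TPM), beside 34.4 to 47.3 TPM in PTS3 mice. Slc5a12 was below 0.05 TPM on average in PTS2 and PTS3, as was Slc5a2 in PTS3. Transcript breadth differed between groups: 26044 to 28418 genes reached 1 TPM in DTL1 pieces, against 11291 to 11788 in PTS3 pieces. In ATL the range was 13532 to 24647, with mice 4 and 6 at the upper end. The 4 of 7 members called higher in the proximal tubule, reported further on, stayed 4 in every one of 64 alternatives, those without these mice or without the GL and DTL1 mice among them. TPM hold no read depth, so counting error cannot be given, and in such bulk samples fewer cells of a type and less RNA per cell cannot be told apart. Exons of Slc34a1, Slc20a1, Slc20a2 and Pdzk1 overlap genes on the opposite strand in the reference annotation, such as Smim19 over Slc20a2 (highest mean 57.0 TPM, in PTS2), and the strand setting of the counting is not given in the sources used here.

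All 7 genes passed the filter of 1 TPM in 3 mice, and all 7 differed among the 15 groups (limma moderated F-test, adjusted p between 6.2e-29 for Slc34a3 and 3.6e-13 for Slc20a1). As 93.9% of the 33793 genes tested did so, this count says nothing particular about them. Their spans differed widely. Group means of Slc34a1 ran from 0.161 TPM in IMCD to 9502 TPM in PTS1, whereas the highest mean was 4.37 times the lowest for Slc20a1, 4.86 times for Slc20a2 and 10.6 times for Slc9a3r1.

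**Figure D1:**
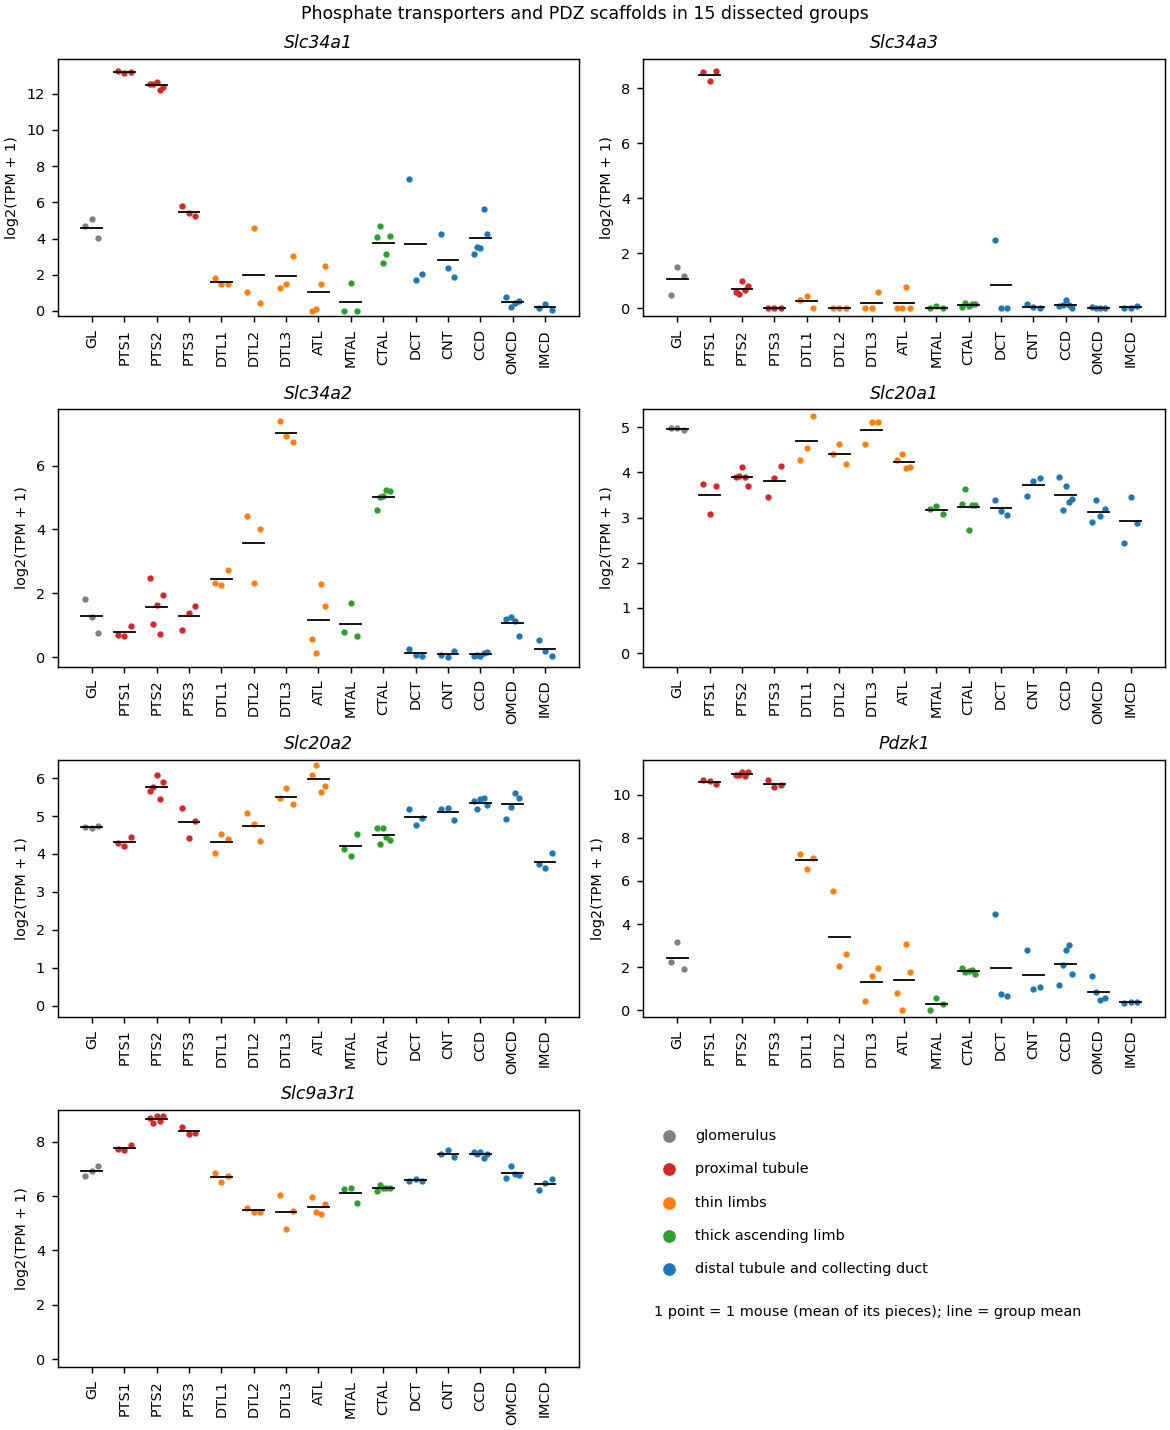
Level of each gene as log2(TPM + 1) in the 15 groups. Each point is 1 mouse (the mean of its pieces), lines are group means, and colours mark the glomerulus, proximal tubule, thin limbs, thick limb and distal segments. Slc34a1 stands high in PTS1 and PTS2, Pdzk1 in PTS1, PTS2 and PTS3, Slc34a3 in PTS1 and Slc34a2 in DTL3 and CTAL. Both Slc20 genes vary within a narrow band.

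Slc34a1, the main renal phosphate carrier, was the most abundant of the 7 transcripts in PTS1 and PTS2, but in none of the other 13 groups. In PTS1 the 3 mice had 9764, 9164 and 9579 TPM, a mean of 9502 ± 307 TPM (SD, n = 3), which gave it rank 8 among all genes of that segment. In PTS2 the 5 mice had 6058, 5845, 6368, 4657 and 5367 TPM, a mean of 5659 ± 668 TPM (n = 5). In PTS3 the 3 mice had 54.3, 41.6 and 36.7 TPM, a mean of 44.2 ± 9.09 TPM (n = 3). The 3 ranges lay apart: every PTS1 mouse was above every PTS2 mouse, and every PTS2 mouse was above every PTS3 mouse. The mean fell 128-fold from PTS2 to PTS3 (log2 difference 7.04, SE 0.69, limma adjusted p = 1.0e-10). Between PTS1 and PTS2 the means differed 1.68-fold, a log2 difference of 0.76 (SE 0.69, adjusted p = 0.57) that did not pass the test. That SE is pooled over all 15 groups, among them DCT and DTL2, whose pieces scattered widely for this gene. With only the PTS1 and PTS2 mice in the fit the SE was 0.12 and the adjusted p 0.0014, with the same difference, which is below the 1 on the log2 scale required of a call. Elsewhere the means were 54.3 ± 89.4 TPM in DCT, 24.2 ± 8.53 in GL, 18.8 ± 16.5 in CCD, 14.3 ± 7.91 in CTAL, 8.15 ± 8.31 in CNT and 7.97 ± 12.6 in DTL2, and between 0.161 TPM (IMCD) and 3.42 TPM (DTL3) in the remaining 6 groups. The DTL2 mean rests on its highest mouse, at 22.495 TPM, beside a median of 1.055 TPM. DCT overlapped PTS3, and from GL downward the mice of each group overlapped those of the next in order. SDs were near or above the mean in DCT, CCD, CNT, DTL2, DTL3, ATL, MTAL and IMCD.

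Slc34a3, the second renal carrier of the family, had a narrower range. The 3 PTS1 mice had 385, 307 and 398 TPM (mean 363 ± 49.0 TPM, n = 3). The 5 PTS2 mice had 0.51, 0.42, 0.995, 0.585 and 0.73 TPM (mean 0.648 ± 0.225 TPM, n = 5), and Slc34a3 is listed at 0 in all 6 PTS3 pieces. No mouse outside PTS1 exceeded 4.52 TPM, the value of DCT mouse 1. The means were 1.51 TPM in DCT and 1.17 ± 0.73 TPM in GL (n = 3), and 71 of the 74 pieces from outside the proximal tubule were below 1 TPM. The PTS1 mean was 561-fold the PTS2 mean (log2 difference 7.79, SE 0.24, adjusted p = 2.0e-28). Slc34a3 was called highest in PTS1 over each of the other 14 groups, by 7.63 (SE 0.27) over GL, the next group (limma intersection-union test, adjusted p = 6.2e-26), as were 0.544% of the genes tested. In PTS1 the level of Slc34a1 was 26.4 ± 3.0 times that of Slc34a3 within the same mouse (n = 3), and in PTS2 it was 9502 ± 3231 times (n = 5).

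Counts over the 7 genes can be read against all genes. Between PTS1 and PTS2, 3 of the 7 were called at an adjusted p under 0.05 and a log2 difference of at least 1, against 9.57% of all genes. Slc34a3 was higher in PTS1, and Slc20a2 (log2 difference -1.46, SE 0.18, adjusted p = 9.0e-09) and Slc9a3r1 (-1.08, SE 0.16, adjusted p = 3.5e-07) were lower. Quantile normalization shrank the Slc9a3r1 difference to -0.63, with adjusted p = 0.0014, which ends that call, and put Slc34a2 past the threshold at -1.34. Between PTS2 and PTS3, 1 of the 7 was called, Slc34a1, against 4.70% of all genes. Another 3 passed the p threshold with a smaller difference, Slc20a2 (0.95, SE 0.18), Slc34a3 (0.71, SE 0.24) and Slc9a3r1 (0.47, SE 0.16). With mouse number as a replicate block, Slc34a3 (limma adjusted p = 0.15) and Slc9a3r1 (0.091) no longer did, whereas a pseudocount of 0.1 TPM (2.84), median ratio rescaling (1.001) and quantile normalization (1.38) each put Slc34a3 past both thresholds, for 2 calls of 7. Between PTS1 and PTS3, which share mice with the other contrasts, Slc34a1 (7.80, SE 0.77) and Slc34a3 (8.50, SE 0.27) were called, 2 of the 7, against 10.1%, and quantile normalization added Slc34a2 (-1.13, adjusted p = 0.0077). Without PTS2 mouse 5 or without PTS3 mouse 1, Slc20a2 also passed between PTS2 and PTS3 (1.03 and 1.13).

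**Figure D2:**
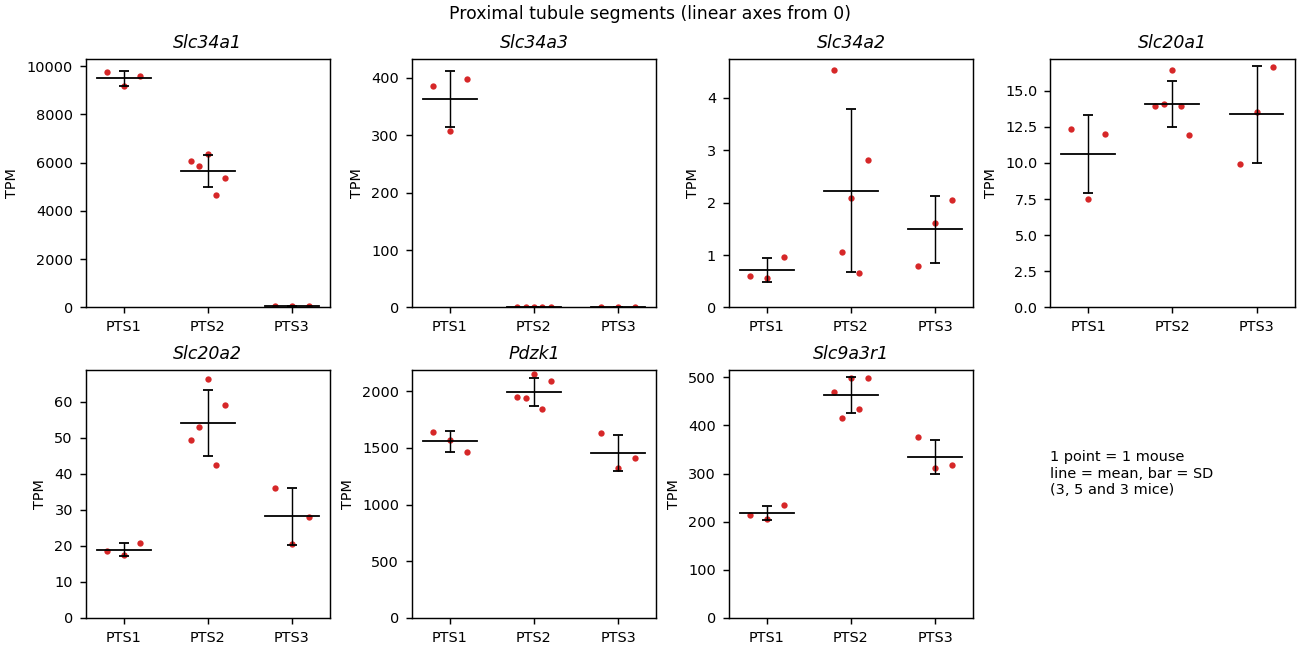
TPM of each gene in PTS1, PTS2 and PTS3 on linear axes from 0. Points are mice, lines means and bars SD (3, 5 and 3 mice). Slc34a1 steps down from PTS1 to PTS2 to PTS3, Slc34a3 is near 0 after PTS1, and Slc20a2 and Slc9a3r1 are highest in PTS2.

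Pdzk1, the scaffold with several PDZ domains, stayed high in all 3 proximal segments. The PTS1 mice had 1638, 1571 and 1461 TPM (mean 1557 ± 89.3 TPM, n = 3). The PTS2 mice had 1950, 1942, 2147, 1840 and 2090 TPM (mean 1994 ± 123 TPM, n = 5). The PTS3 mice had 1631, 1322 and 1413 TPM (mean 1456 ± 159 TPM, n = 3). Every PTS2 mouse was above every mouse of PTS1 and PTS3, and the PTS1 and PTS3 ranges overlapped. Neither step passed the pooled test (PTS1 minus PTS2 -0.36, SE 0.50, PTS2 minus PTS3 0.46, SE 0.50, adjusted p = 0.74 and 1). In fits of only the 2 groups the adjusted p was 3.8e-03 and 0.014, with differences below the size required of a call. The first thin limb came next: the DTL1 mice had 152, 93.8 and 134 TPM (mean 127 ± 29.8 TPM, n = 3), a level 11.5-fold below PTS3 (log2 difference 3.54, SE 0.55, adjusted p = 3.0e-07). DTL1 is also the group whose proximal marker sum was highest outside the proximal tubule. The part of proximal RNA in this value was not tested. Farther along, Pdzk1 means were 18.0 ± 24.2 TPM in DTL2, 7.60 ± 12.02 in DCT, 4.82 ± 2.71 in GL and 3.98 ± 2.48 in CCD, and between 0.243 TPM (MTAL) and 2.68 TPM (CNT) in the other 7 groups. From DTL2 downward the mice of each group overlapped those of the next in order, except that OMCD lay above IMCD.

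Slc9a3r1, the scaffold that also binds ezrin, was found in every piece at 10 TPM or more. The PTS1 mice had 215, 205 and 234 TPM (mean 218 ± 14.6 TPM, n = 3). The PTS2 mice had 470, 416, 499, 435 and 499 TPM (mean 463 ± 37.5 TPM, n = 5), 2.13-fold the PTS1 mean. The PTS3 mice had 376, 312 and 317 TPM (mean 335 ± 35.4 TPM, n = 3). The 3 ranges did not overlap, but that of PTS1 overlapped that of CNT (171 to 209 TPM). Beyond the proximal tubule the level fell to 43.6 ± 2.85 TPM in DTL2 (n = 3) and stood at 189 ± 19.1 TPM in CNT (n = 3) and 187 TPM (168 to 198 TPM over mice) in CCD (n = 5), with CNT and CCD overlapping each other. Between these lay GL (121.5 ± 14.9 TPM), OMCD (115 ± 15.7), DTL1 (104 ± 11.9), DCT (94.8 ± 3.30), IMCD (87.2 ± 12.2), CTAL (77.8 ± 3.92), MTAL (69.1 ± 13.7), ATL (48.4 ± 9.97) and DTL3 (44.8 ± 19.5), a gradual order in which each group overlapped the next. PTS2 was the highest group, but its lead over PTS3 did not pass the test against all groups (0.47, SE 0.16, adjusted p = 0.37).

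Against all 11 other tubule segments together, the proximal segments were higher for 4 of the 7 genes, and none was lower, where 23.8% of all genes were called in either direction and 4.02% as higher in the proximal tubule. The 4 were Pdzk1 (log2 difference 8.78, SE 0.24), Slc34a1 (8.46, SE 0.33), Slc34a3 (2.92, SE 0.12) and Slc9a3r1 (1.92, SE 0.08), with limma adjusted p between 2.4e-32 and 5.8e-26. For Slc34a3 the 3 proximal segments were unlike, with 363 TPM in PTS1, 0.648 TPM in PTS2 and 0 listed in PTS3, beside a DCT mean of 1.51 TPM that rests on mouse 1 (the other 2 mice were at 0.01 TPM). For Slc34a1 they were unlike too, with 9502 TPM in PTS1, 5659 TPM in PTS2 and 44.2 TPM in PTS3. The PTS3 range of Slc34a1 overlapped that of DCT, and the PTS1 range of Slc9a3r1 overlapped that of CNT. Slc34a2 was at -0.77 (SE 0.16), Slc20a1 at 0.00 (SE 0.10) and Slc20a2 at 0.08 (SE 0.09), beside a median of -0.41 over all genes. Median ratio rescaling put Slc20a1 at 0.87 and Slc20a2 at 0.98, and quantile normalization put Slc34a2 at 0.07, on the other side of 0. The same 2 scalings moved the share of all calls that were higher in the proximal tubule from 16.9% to 49.3% and 52.7%.

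The balance between scaffold and carrier was followed as a ratio within each mouse, tested by exact two-sided permutation of mice for 6 pairs of genes and 2 contrasts, 12 tests in all. With 3 against 5 mice the smallest p this allows is 0.0357, which becomes 0.0429 after adjustment over the 12 tests. Per Slc34a1 transcript there was 0.164 ± 0.010 of Pdzk1 in PTS1 (n = 3), 0.355 ± 0.034 in PTS2 (n = 5) and 33.4 ± 4.5 in PTS3 (n = 3). The ranges did not overlap, and both steps reached the smallest p (log2 differences -1.12 and -6.58, exact p = 0.0357 each). Slc9a3r1 stood at 0.0230 ± 0.0013 per Slc34a1 in PTS1, 0.0826 ± 0.0100 in PTS2 and 7.69 ± 0.87 in PTS3, and again both steps reached the smallest p (-1.84 and -6.57, exact p = 0.0357 each).

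The ratio of Slc34a3 to Slc34a1 was likewise apart between PTS1 and PTS2 (log2 difference 7.03, exact p = 0.0357). The pseudocount understates this difference, as Slc34a3 was at only 0.42 to 0.995 TPM in PTS2. Without the pseudocount the ratio was 0.0382 in PTS1 and 0.000115 in PTS2. Slc34a1 to Slc20a2 was also apart, with 504 ± 39.8 in PTS1, 106 ± 12.7 in PTS2 and 1.62 ± 0.38 in PTS3 (2.22 and 6.09, exact p = 0.0357 each). For Slc34a3 to Slc34a1 from PTS2 to PTS3 (-6.33, exact p = 0.0357) the pseudocount sets the PTS3 value, since Slc34a3 is listed at 0 there. It also turns the sign: without it the ratio was 0.000115 in PTS2 and 0 in PTS3. No conclusion is drawn from that test.

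Pdzk1 was 7.17 ± 0.81 times Slc9a3r1 in PTS1 (n = 3) and 4.31 ± 0.21 times in PTS2 (n = 5), with ranges apart (log2 difference 0.73, exact p = 0.0357). In PTS3 the ratio was 4.35 ± 0.11 (n = 3), inside the PTS2 range of 4.15 to 4.67 (difference -0.01, exact p = 0.82). Slc20a2 was 1.86 ± 0.42 times Slc20a1 in PTS1 and 3.87 ± 0.70 times in PTS2, ranges apart (-1.06, exact p = 0.0357). In PTS3 it was 2.28 ± 1.19 times (0.83, exact p = 0.0714). The sum of the 3 Slc34 transcripts was 337 ± 39.4 times the sum of both Slc20 transcripts in PTS1, 83.6 ± 8.24 times in PTS2 and 1.11 ± 0.21 times in PTS3.

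**Figure D3:**
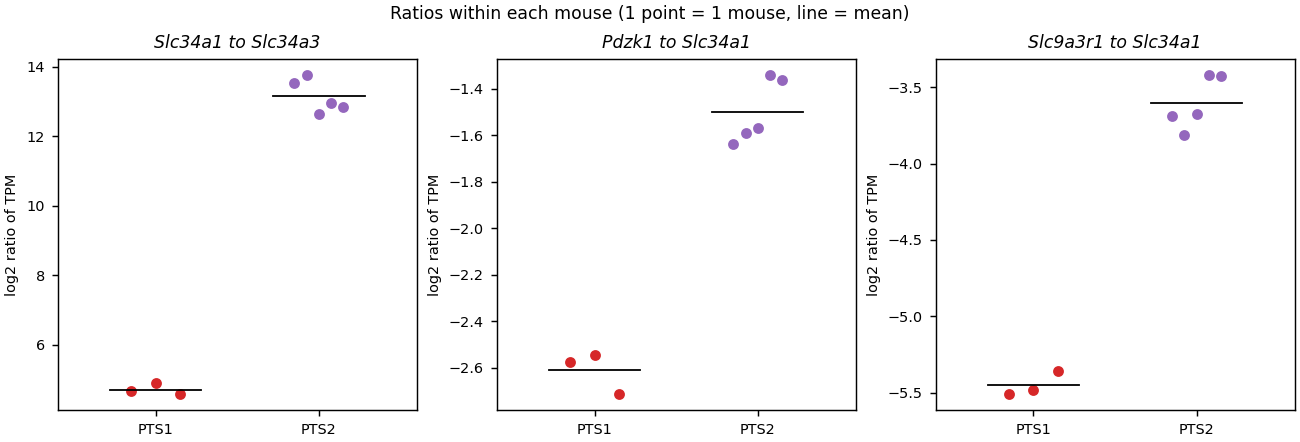
Log2 ratio of TPM within each mouse of PTS1 (3 mice) and PTS2 (5 mice), for Slc34a1 to Slc34a3, Pdzk1 to Slc34a1 and Slc9a3r1 to Slc34a1. Points are mice and lines means, and the 2 segments do not overlap in any of the 3 panels. The vertical axes differ between panels and do not start at 0.

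Slc34a2, the carrier best known from intestine and lung, had its highest level in the inner medullary descending limb. The DTL3 mice had 167, 120 and 105 TPM (mean 131 ± 32.1 TPM, n = 3). The CTAL mice followed with 23.45, 31.6, 32.1, 36.3 and 35.5 TPM (mean 31.8 ± 5.08 TPM, n = 5). The lowest DTL3 mouse was above the highest CTAL mouse, and the lowest CTAL mouse was above the mice of every group that followed in the order. The lead of DTL3 over all other groups passed the intersection-union test (1.99 over CTAL, SE 0.34, adjusted p = 3.3e-04), as it did for 0.257% of genes. A pseudocount of 0.1 TPM (adjusted p = 0.26) or median ratio rescaling (1.34, adjusted p = 0.088) ends that call. DTL3 pieces had 22250 to 24500 genes at 1 TPM or more, and CTAL pieces 12798 to 13229. The part of this breadth in the lead was not tested. The neighbours were far lower: ATL held 1.63 ± 1.73 TPM (n = 4), MTAL 1.17 ± 0.90 TPM (n = 3) and DCT 0.087 ± 0.094 TPM (n = 3). CTAL was thus 27.2-fold above MTAL (MTAL minus CTAL -3.98, SE 0.34, adjusted p = 4.2e-12). In DTL2 the pieces scattered, with 35.9 and 4.58 TPM in the pieces of mouse 1, 4.31 and 3.70 in mouse 2, and 1.52, 25.0 and 19.1 in mouse 3. In the proximal segments the mice had between 0.57 and 4.54 TPM. The other means were 13.1 ± 8.30 TPM in DTL2, 4.50 ± 1.03 in DTL1, 1.55 ± 0.93 in GL, 1.11 ± 0.36 in OMCD and 0.20 ± 0.22 in IMCD, with CNT and CCD below 0.06 TPM.

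Slc20a1 was present in all 93 pieces at 1 TPM or more. Its highest means were 30.2 ± 0.60 TPM in GL (30.6, 30.5 and 29.6 TPM, n = 3) and 30.2 ± 5.50 TPM in DTL3 (23.9, 33.4 and 33.4 TPM, n = 3). The lowest was 6.92 ± 2.83 TPM in IMCD (4.39, 9.98 and 6.41 TPM, n = 3). No 2 neighbours in the order of the 15 means had ranges apart, so that order is a gradual one. Endothelial marker sums were also highest in GL (2851 to 2862 TPM) and DTL1 mice (804 to 883 TPM). The 4 groups with the highest Slc20a1 means were also those with many genes at 1 TPM or more per piece, 22461 to 29603 in GL, 22250 to 24500 in DTL3, 26044 to 28418 in DTL1 and 17220 to 21878 in DTL2, beside 11291 to 14099 in the proximal segments. ATL (13532 to 24647) and OMCD (16644 to 20672), the latter with the second lowest Slc20a1 mean, also reached high counts. The part of either in the Slc20a1 levels was not tested. GL was above PTS1 by 1.46 (SE 0.24, adjusted p = 8.3e-07) beside a median of 0.96 over all genes, and by 0.25 after median ratio rescaling and 0.12 after quantile normalization, where the call was lost. In the proximal tubule the means were 10.6 ± 2.71, 14.1 ± 1.59 and 13.4 ± 3.37 TPM from PTS1 to PTS3, with overlapping ranges. The other thin limbs had 25.9 ± 9.96 TPM (DTL1), 20.3 ± 3.38 (DTL2) and 17.8 ± 1.96 (ATL), and the segments from MTAL to OMCD had means between 7.83 TPM (OMCD) and 12.3 TPM (CNT). Of the 4 DTL3 pieces, 3 carry the same Slc20a1 value, 33.38 TPM, in 2 mice.

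Slc20a2 reached 62.8 ± 14.1 TPM in ATL (66.8, 80.8, 48.9 and 54.7 TPM, n = 4) and 54.1 ± 9.20 TPM in PTS2 (49.4, 53.1, 66.5, 42.4 and 59.1 TPM, n = 5), and these ranges overlapped. PTS1 had 18.5, 17.4 and 20.9 TPM (mean 19.0 ± 1.80 TPM, n = 3), below every PTS2 mouse, and PTS2 was 2.85-fold higher. PTS3 had 36.2, 20.4 and 28.0 TPM (mean 28.2 ± 7.88 TPM, n = 3), also below every PTS2 mouse. DTL3 had 44.9 ± 6.69 TPM, CCD 39.97 ± 3.27, OMCD 39.4 ± 8.32, CNT 33.5 ± 3.93, DCT 30.6 ± 4.72, DTL2 26.2 ± 6.91 and GL 25.4 ± 0.53, and CTAL, DTL1 and MTAL had between 17.6 and 21.6 TPM, with each group overlapping the next. The lowest mean was in IMCD, 12.9 ± 1.97 TPM (n = 3), below OMCD by 1.53 on the log2 scale (SE 0.19, adjusted p = 6.2e-09). ATL was above MTAL by 1.78 (SE 0.19, adjusted p = 9.8e-11) for Slc20a2. For Slc20a1 the same step was 1.07 (SE 0.22, adjusted p = 1.1e-04), and it dropped to 0.68 and 0.46 under the rescalings, below the size required.

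**Figure D4:**
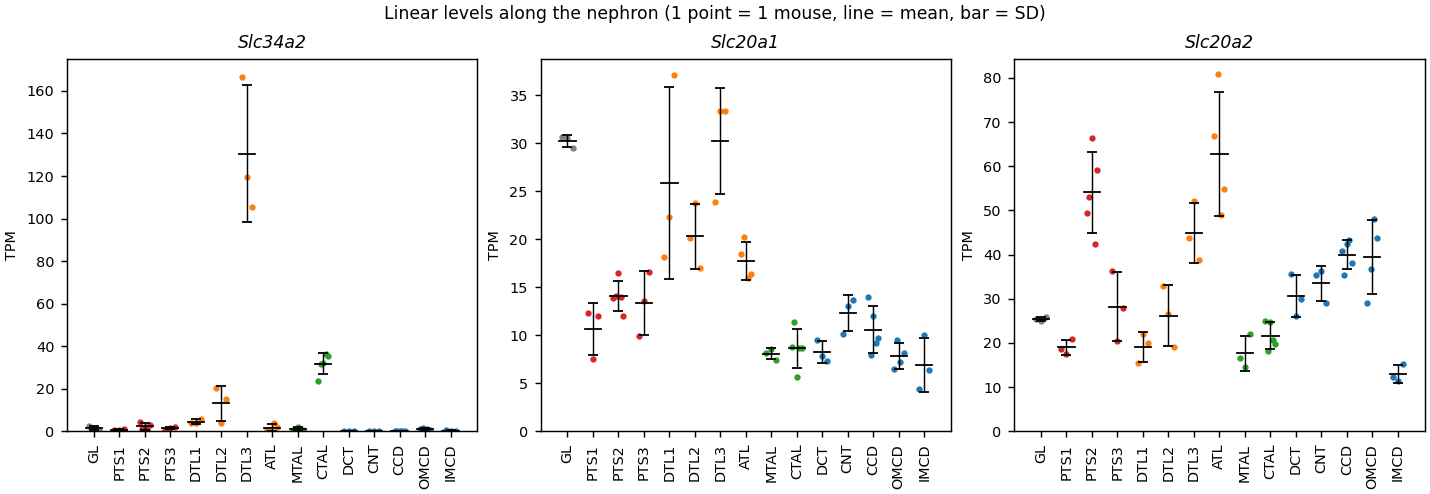
TPM of Slc34a2, Slc20a1 and Slc20a2 in the 15 groups on linear axes from 0. Points are mice, lines means and bars SD. Slc34a2 peaks in DTL3 with a second rise in CTAL, Slc20a1 is highest in GL and the descending limbs, and Slc20a2 is highest in ATL and PTS2.

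The other neighbouring segments gave the following counts. Between GL and PTS1, 4 of the 7 genes were called (51.9% of all genes): Pdzk1 (-8.43), Slc34a1 (-9.33) and Slc34a3 (-7.63) were lower in GL, and Slc20a1 was higher. From PTS3 to DTL1, 4 of 7 were called (65.5% of all genes), with Slc34a1 (3.82), Pdzk1 (3.54) and Slc9a3r1 (1.69) higher in PTS3. The fourth, Slc34a2, was lower in PTS3 (-1.22, SE 0.38), but quantile normalization turned it to 1.41, and the median of all genes here was -1.33. From PTS3 to DTL2, 4 of 7 were called (40.0% of all genes), again Pdzk1 (7.82), Slc34a1 (3.82) and Slc9a3r1 (2.92) higher and Slc34a2 (-1.99) lower in PTS3. The 2 contrasts share the PTS3 mice. Between DTL1 and DTL2, Pdzk1 (4.28) and Slc9a3r1 (1.23) were higher in DTL1, 2 of 7 against 28.2% of all genes.

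Further along, Slc34a2 was the gene that changed most often. It was the 1 call of 7 from DTL2 to DTL3 (-3.81, 9.58% of all genes called), from DTL3 to ATL (5.86, 14.6%) and from CTAL to DCT (4.91, 4.35%). Both Slc20 genes were the 2 calls of 7 from ATL to MTAL (28.1%). From MTAL to CTAL 3 of 7 were called (3.15%), all higher in CTAL: Slc34a2, Slc34a1 (-3.35, SE 0.69) and Pdzk1 (-1.54, SE 0.50). The Pdzk1 call lay at the threshold (adjusted p = 0.0498) and was lost in 15 of 22 alternatives, the replicate block among them (adjusted p = 0.089). No member was called from DCT to CNT (5.22% of all genes), where 3 had an unadjusted p under 0.05, or from CNT to CCD (1.12%), where 0 had. Slc9a3r1 was nearest from DCT to CNT, at -0.98 (SE 0.18, adjusted p = 4.3e-05). Without DCT mouse 2, or without CNT mouse 3, 1 member was called there. From CCD to OMCD, Slc34a1 (3.46) and Pdzk1 (1.24) were called, 2 of 7 against 12.1%, and from OMCD to IMCD Slc20a2 alone, 1 of 7 against 18.6%. Without DCT mouse 1, 2 members were called from CTAL to DCT. The Pdzk1 call from CCD to OMCD was lost without any 1 of CCD mice 2, 3 and 4 or OMCD mice 2, 3 and 4.

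Outside the proximal tubule, many low levels of Slc34a1 and Pdzk1 stood beside proximal markers in the same piece. DTL1 had the highest marker sums there but only 2.03 ± 0.41 TPM of Slc34a1 (n = 3), and without its pieces 70 remained. Of these, 16 had under 5 TPM summed over 7 proximal markers (the list without Kap), and there Slc34a1 ran from 0 to 1.76 TPM and Pdzk1 from 0 to 0.83 TPM. In the 39 pieces with 5 to 50 TPM of these markers, Slc34a1 ran from 0 to 43.6 TPM with a median of 2, 12 pieces being below 1 TPM and 7 at 10 TPM or more, and Pdzk1 from 0 to 10.6 TPM with a median of 1.66. In the 15 pieces with 50 TPM or more of these markers, Slc34a1 ran from 0.91 to 290 TPM with a median of 15.8, and Pdzk1 from 1.19 to 90.7 TPM with a median of 3.98. All 8 CTAL pieces belong to these 15. The summed level of all 8 markers was 123 to 505 TPM in CTAL mice and 2.17 to 16.8 TPM in MTAL mice, and 112 to 540 TPM in CCD mice and 17.9 to 31.6 TPM in OMCD mice, the pairs of groups between which Slc34a1 and Pdzk1 were called.

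The highest of these was the second piece of DCT mouse 1, with 290 TPM of Slc34a1, 8.42 of Slc34a3, 40.9 of Pdzk1 and 71.6 of Slc5a2, the sodium-glucose carrier of the early proximal tubule. The first piece of the same mouse had 25.6 TPM of Slc34a1, 0.62 of Slc34a3 and 2.03 of Pdzk1, and the other 2 DCT mice had 2.30 and 3.10 TPM of Slc34a1. In that second piece Slc34a1 was 34.4 times Slc34a3, beside 24.1 to 31.9 times in the PTS1 pieces. In the first piece it was 41.3 times. Other pieces from outside the proximal tubule varied widely in this ratio, such as 681 in CCD mouse 4 and 12.2 in the first piece of GL mouse 3. In the glomerulus the first piece of each mouse had more Slc34a1 (41.2, 63.3 and 26.9 TPM) than the second (7.70, 2 and 4.30 TPM), and Slc5a2 was likewise higher in the first (15.3, 23.7 and 11.8 TPM) than in the second (0.30, 0 and 1.40 TPM). The second piece of DTL2 mouse 1 had 90.7 TPM of Pdzk1 with 241 TPM of Slc27a2, whereas the other piece had 1.14 TPM of Pdzk1 and 9.79 TPM of Slc27a2. By contrast, the first piece of DTL2 mouse 2 had 43.6 TPM of Slc34a1 with a sum of 5 to 50 TPM over the 7 markers. Its Pdzk1 level was only 0.0576 times its Slc34a1 level. Of the 5 CCD mice, mouse 4 had 47.6 TPM of Slc34a1, above the 7.89 to 17.9 TPM of the others. The part of proximal RNA in these values was not tested.

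**Figure D5:**
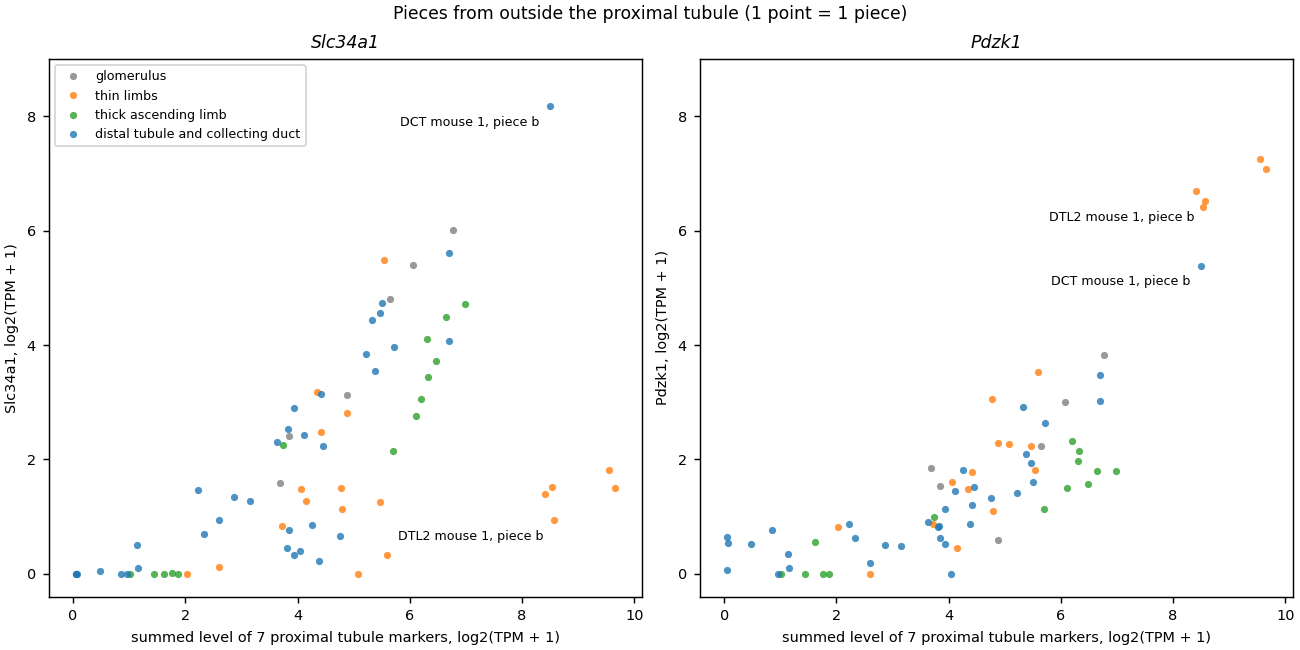
Level of Slc34a1 (left) and Pdzk1 (right) in each piece from outside the proximal tubule, as log2(TPM + 1), against the summed level of 7 proximal tubule markers on the same scale. Colours give the region, and the second pieces of DCT mouse 1 and DTL2 mouse 1 are named. Pieces with low marker sums have low levels of both genes, and the DTL1 pieces at the right are high in Pdzk1 but not in Slc34a1.

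Genes linked to the members were examined in 4 lists. Among 8 partners of the scaffolds and of the brush border cytoskeleton, 1 was called between PTS1 and PTS2 and 1 between PTS2 and PTS3, in each case Pdzk1ip1, a small membrane protein that binds Pdzk1. That is 12.5% of the list, beside 9.57% and 4.70% of all genes, with list medians of 0.09 and 0.12 beside 0.15 and 0.00 over all genes. Pdzk1ip1 had 3487 ± 131 TPM in PTS1 and 705 ± 60.3 TPM in PTS2 (PTS1 minus PTS2 2.31, SE 0.17, adjusted p = 8.0e-15), and its highest mean was 4742 ± 440 TPM in CCD. Ezr, which encodes ezrin, had 257 ± 26.6 TPM in PTS1, 223 ± 16.4 TPM in PTS2 and 117 ± 13.9 TPM in PTS3. Slc9a3r2, the paralog of Slc9a3r1, had 1467 ± 99.7 TPM in GL and 9.34 to 20.1 TPM as means of the proximal segments. Gabarap, an autophagy adaptor, ran from 391 to 975 TPM over the groups. Between the proximal and the other tubule segments, 1 of the 8 was higher (Pdzd3, another scaffold with PDZ domains, 6.47, SE 0.15) and 2 were lower (Slc9a3r2 and Shank2), where 23.8% of all genes were called.

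Among 8 transporters known to bind Pdzk1 or Slc9a3r1, 7 were higher in the proximal tubule than in the average of the other segments and none was lower, where 4.02% of all genes were higher, with a list median of 2.10 beside -0.41. Single segments could differ from that average. Slc22a4 had its highest mean in ATL (318 ± 97.6 TPM) and Slc9a3 in DTL2 (295 ± 27.8 TPM), the others in a proximal segment. Slc22a5 had 212 TPM in DTL3, beside 217 TPM in PTS2. Within the proximal tubule the listed transporters divided. Between PTS1 and PTS2, 1 was higher in PTS1 (the sodium-proton exchanger Slc9a3, 1.29, SE 0.30) and 4 were lower (9.57% of all genes called, list median -1.16 beside 0.15). The lower ones included the organic anion carrier Slco1a1 (2.495 ± 4.23 TPM in PTS1 and 374 ± 68.4 TPM in PTS2, log2 difference -7.79, SE 0.39), the urate carrier Slc22a12 (114 and 1185 TPM, -3.54, SE 0.40) and the peptide carrier Slc15a2 (56.4 and 249.96 TPM, -2.15, SE 0.50). Slc17a1 was at 483 and 905 TPM and did not pass (-0.90, SE 0.38, adjusted p = 0.10). Between PTS2 and PTS3, 5 were higher in PTS2 and none lower (4.70% of all genes called, list median 1.83 beside 0.00).

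Among 6 other phosphate genes, 2 were higher and 1 lower in PTS1 than in PTS2 (9.57% of all genes called, list median 0.27 beside 0.15). Alpl, the phosphatase that frees phosphate from organic esters, had 1033 TPM in PTS1 and 69.2 TPM in PTS2 and is listed at 0 in PTS3 (PTS1 minus PTS2 3.94, SE 0.47, adjusted p = 4.1e-09). Slc17a4 was the other higher gene (2.98, SE 0.31), and Slc17a3 was lower (146 and 1249 TPM, -3.16, SE 0.43). Xpr1, the known phosphate exporter, had 18.4, 12.1 and 9.42 TPM from PTS1 to PTS3 and was not called in these 3 contrasts. Enpp1, which makes pyrophosphate, was called between PTS2 and PTS3 (1.82, SE 0.35).

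Among 6 genes of hormone signalling to phosphate transport, 2 were higher and 3 lower in PTS1 than in PTS2 (9.57% of all genes called, list median -0.89 beside 0.15). The 2 higher ones act on vitamin D: Cyp27b1, which activates it (72.4 ± 12.4 and 0.438 ± 0.223 TPM, 5.68, SE 0.34), and Cyp24a1, which inactivates it (82.3 ± 79.5 and 2.28 ± 1.49 TPM, 4.40, SE 0.42). The lower ones were the parathyroid hormone receptor Pth1r (355 and 981 TPM, -1.46, SE 0.29), the FGF receptor Fgfr1 (-1.65, SE 0.19) and the vitamin D receptor Vdr (62.9 and 150.2 TPM, -1.26, SE 0.30). Kl, the co-receptor for FGF23, had 135 TPM in PTS1, 193 TPM in PTS2 and 9.03 TPM in PTS3 (PTS2 minus PTS3 4.31, SE 0.32, adjusted p = 3.2e-14), and its highest mean was 2089 TPM in DCT, where Vdr also had its highest mean, 474 TPM.

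The genes most like each member were found by Pearson's r of log2(TPM + 1) over the 15 group means, among 11938 genes with a group mean of 10 TPM or more, as a description. The group means share libraries and their cell makeup. For Pdzk1 the nearest were Hgd (r = 0.999), Cyp2j5 (0.995) and Pck1 (0.995). Slc34a1 was followed by Ugt2b38 (0.973), Dleu7 (0.957) and Slc25a15 (0.955), and Slc34a3 by Ugt2b34 (0.995), Fabp1 (0.993) and Cox6a2 (0.992). For Slc34a2 they were Wnt8b (0.86), Cdh6 (0.82) and Kirrel3 (0.79), each highest in DTL3. Slc9a3r1 was followed by Fuca2 (0.93), Slc16a4 and Dnph1 (both 0.89). For Slc20a1 they included Atp10d (0.92) and Tshz2 (0.86), and for Slc20a2 Ccz1 (0.91), Yipf5 (0.84) and Lonp2 (0.80). By Spearman's rho, all 3 genes stayed among the nearest for Slc20a2, 1 did for Slc34a1 and for Slc9a3r1, and none of those named did for the other 4 members. Among the members themselves, r was 0.82 between Slc34a1 and Pdzk1, 0.73 between Pdzk1 and Slc9a3r1, 0.72 between Slc34a1 and Slc9a3r1, 0.71 between Slc34a1 and Slc34a3, 0.51 between Slc34a3 and Pdzk1, 0.48 between Slc34a2 and Slc20a1 and -0.48 between Slc34a2 and Slc9a3r1, and closer to 0 for the other 14 pairs.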

How the data were processed

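Per the labels' protocols, polyadenylated RNA from dissected pieces went through Direct-zol purification, SMARTer amplification and Nextera XT library preparation. The authors deposited TPM per gene, rounded to 2 decimals (1 decimal for glomeruli). The submitters' processing notes name STAR 2.5.4a and RSEM 1.3.0 among their tools, with no role, and the genome build is not given in the sources used here. The name of 1 column fits no sample title: it reads PTS2 mouse 2, piece b, whereas the title of PTS2 mouse 2 has piece a. This column counts here as a further PTS2 mouse, treated as unnumbered. The 3 single-cell samples were not analysed here. The 93 columns summed to between 999999 and 1000190 TPM.

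Pieces of a mouse were averaged as log2(TPM + 1), and limma 3.58.1 in R 4.3.3 (eBayes with a trend, all 15 groups) was fitted to 33793 genes with 1 TPM or more in 3 mice, with Benjamini-Hochberg adjustment over genes. A call needs an adjusted p under 0.05 and a log2 difference of at least 1, and low genes are understated on this scale. Exact permutation tests used scipy 1.17.1. The scripts were tested on simulated data. The members, lists and tests were chosen with earlier results of these data known. Named genes are the 7 members, the genes with the 4 highest group means in each list, and the 3 genes most like each member, of which 1 is not reported here. The other list genes named were chosen after their values were seen. The submitters' design text gives 53 mice, which equals the combinations of mouse number and segment, so a number shared between segments was not taken to mean the same mouse. Alternatives changed the pseudocount, filter, scaling, averaging of pieces, trend, groups in the fit, replicate block and mice included. For PTS1 the authors' deposited mean of Slc34a1 is 9878 TPM against 9487 TPM over the deposited pieces, and outside PTS1 the members' deposited means matched the pieces within 0.05 TPM.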

Additional observations from a re-analysis of the deposited data

Results flagged for a closer look

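In groups of 4 to 10 mice, a mouse was flagged where its gap to the next filled most of the group's range. Of 35 combinations of gene and group tested, 3 were flagged, where chance flags about 1 in 20 for values without ties. In CCD, mouse 4 had 47.65 TPM of Slc34a1, beside 7.89 to 17.925 TPM in the other 4 mice, and it also had the second-highest proximal marker sum among the CCD pieces (540 TPM with Kap). In ATL, mouse 4 had 0.72 TPM of Slc34a3, which is listed at 0 in the other 3 mice. In OMCD, mouse 1 had 0.025 TPM of Slc34a3, also listed at 0 in the others. In these 2 groups any single value above 0 is flagged by construction, so the chance rate does not apply to them. The part of proximal RNA in these values was not tested.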

How the results depend on the processing

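The count of 4 members higher in the proximal tubule, of 7 differing among groups, and the calls of Slc34a1 between PTS2 and PTS3 and of Slc34a3 between PTS1 and PTS2 were the same in every alternative run. Of 2193 values under alternatives, 2013 kept direction and side of the threshold or, for counts, stayed within 1.5 times. The following member counts moved further than that. From PTS2 to PTS3 the count rose to 2 with a pseudocount of 0.1 TPM, median ratio rescaling and quantile normalization, through Slc34a3 (2.84, 1.001 and 1.38). It was 2 from OMCD to IMCD with a pseudocount of 0.1 TPM. It fell to 1 from ATL to MTAL with a pseudocount of 5 TPM and both rescalings. It fell to 1 from CCD to OMCD with a pseudocount of 5 TPM, no filter, pieces averaged before the log, or every piece with the mouse as a block. It was 2 from DTL2 to DTL3 with quantile normalization, pieces averaged before the log, without the second piece of DCT mouse 1 and without ATL mice 4 and 6. Members highest in 1 group numbered 1 with a pseudocount of 0.1 TPM or median ratio rescaling. Leaving out single mice gave 1 to 2 members from PTS2 to PTS3, CTAL to DCT and CCD to OMCD, and 0 to 1 from DCT to CNT. Within that tolerance, the 3 members called from MTAL to CTAL became 2 in 15 of 22 alternatives, each omission of 1 mouse among them. The cause was not tested.

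Values that changed sign were small or scale-bound. Slc20a1 between proximal and other tubule was -0.0240 with a pseudocount of 5 TPM, -0.00810 without ATL mice 4 and 6, and -0.045 to 0.074 without single mice. From PTS2 to PTS3 it was -0.032 and -0.18 under median ratio and quantile scaling and -0.063 to 0.26 without single mice. Pdzk1 from PTS1 to PTS3 was -0.00889 and -0.0267 under the same scalings. Under quantile normalization Slc34a2 was 1.41 from PTS3 to DTL1 and 0.069 between proximal and other tubule.

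Without single mice, the 10 ratio differences that had passed kept their direction, which for Slc34a3 to Slc34a1 from PTS2 to PTS3 the pseudocount fixes. All 10 lost the threshold after adjustment, since so few mice cannot reach it. Their ranges from PTS1 to PTS2 were 6.96 to 7.12 for Slc34a3 to Slc34a1, -1.15 to -1.07 for Pdzk1 to Slc34a1, -1.90 to -1.79 for Slc9a3r1 to Slc34a1, 0.68 to 0.82 for Pdzk1 to Slc9a3r1, -1.21 to -0.93 for Slc20a2 to Slc20a1 and 2.17 to 2.29 for Slc34a1 to Slc20a2. From PTS2 to PTS3 they were -6.51 to -6.19 (where the pseudocount sets the PTS3 value, Slc34a3 being listed at 0), -6.67 to -6.46 for Pdzk1 to Slc34a1, -6.66 to -6.47 for Slc9a3r1 to Slc34a1, 5.93 to 6.26 for Slc34a1 to Slc20a2 and -0.040 to 0.0084 for Pdzk1 to Slc9a3r1, which had not passed.

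With mouse number as a replicate block, the Pdzk1 call from MTAL to CTAL was lost (-1.41, limma adjusted p = 0.089), which took the member count there from 3 to 2, and no other call by p and size changed (Slc34a1 between PTS2 and PTS3 was 6.85). Among PTS1, PTS2 and PTS3, the groups checked, deviations of same-numbered mice correlated at -0.014 to 0.089 over 7 pairs, and of other mice at -0.071 to 0.063 over 32, so the numbers were not used to pair mice. The 32 include the PTS2 column treated as unnumbered, whose name reads mouse 2. It correlated at 0.0080 with PTS1 mouse 2 and at -0.0071 with PTS3 mouse 2. The other 12 groups were not checked.

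Counts over all genes moved more. With a pseudocount of 0.1 TPM and of 5 TPM the calls went from 3233 to 8926 and 1811 between PTS1 and PTS2, from 1588 to 2640 and 763 between PTS2 and PTS3, from 3417 to 8631 and 1813 between PTS1 and PTS3 and from 8041 to 16746 and 4325 between proximal and other tubule, 4489 with quantile normalization. From GL to PTS1 they went from 17541 to 9053 and 7171 under median ratio and quantile scaling, and from DTL3 to ATL from 4948 to 10478 without ATL mice 4 and 6. The median of all genes from GL to PTS1 was 0.96 as deposited, 0.45 and 0.01 under the scalings, and from PTS3 to DTL1 -1.33, -0.81 and -0.02. Read depth is unknown, so its limit on low levels cannot be given.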
